A study of Rattus norvegicus with 12 samples.

Results

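A set of 79 transcripts was higher, by the limits given below, in wild-type than in transgenic β-synuclein-reactive CD4+ T cells of the blood. It was drawn from 32754 gene rows, of which 9850 averaged at least 2 CPM (counts scaled to a library total of 1000000) in wild-type blood. The libraries came from Lewis rats (LEW/Crl), and the cells were sorted 3 days after intravenous transfer. There were 4 groups of 3 libraries: wild-type (wt) cells from blood, and cells of the genotype b-syn TCR Tg from blood, from the brain meninges and from the brain parenchyma. Wild-type cells were sequenced from blood alone, so every comparison of the brain tissues with wild-type blood is also a comparison of genotypes. The titles carry the digit 4 for the parenchyma and 3 for the other libraries. If it marks a day, day and tissue cannot be told apart for the parenchyma. The labels give no promoter or founder line for the transgene, no age of the animals, and nothing that makes the replicates separate animals. The p-values therefore reflect how far these libraries vary, which may be technical.

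β-Synuclein is a protein of nerve terminals, and T cells that recognise it can be primed in the periphery and attack grey matter. A T cell recognises its antigen through a receptor assembled from variable segments. Cells of a wild-type line can therefore carry many different receptors, while cells of a receptor transgenic animal share a chosen one. On the way to the brain such cells pass through the meninges, the membranes around it, and can meet antigen again there and in the parenchyma, the brain tissue itself. Such an encounter is known to change which genes T cells transcribe. The files list genes by Ensembl rat identifier and do not pair them with names, so neither the function of a member nor the markers of the sorted cells were analysed here.

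Members were chosen on the blood libraries in 3 steps. The mean in wild-type blood had to be at least 2 CPM. With 0.5 CPM added to both, it had to be at least 4 times the mean in transgenic blood. Every wild-type library had to lie above every transgenic blood library. Their difference between the blood genotypes is therefore a description and was not tested. Library totals ran from 16643832 to 38601400 counts, and the 3 wild-type libraries, at 29959282 to 38601400 counts, were deeper than the 3 transgenic blood libraries, at 16848739 to 21229957. Which kit made which library is not given by the labels, and genotype, depth and a possible kit difference cannot be told apart in blood.

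In wild-type blood the members' means ran from 2.47 to 338 CPM, with a median of 19.7 CPM, and 50 of the 79 averaged at least 10 CPM. The same members had a median of 2.11 CPM in transgenic blood, where 28 averaged under 1 CPM and 14 at least 10 CPM. The ratio of wild-type to transgenic blood, with 0.5 CPM added, had a median of 6.43 and was at least 10 in 17 members. It was under 5 in 25 members. At the limit, the 3 nearest members had ratios of 4.09, 4.10 and 4.11, and the 3 nearest rows outside had 3.95, 3.96 and a value just under 4. A further 2 rows passed the level and the ratio but overlapped between the genotypes.

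All members together held 0.358% ± 0.0273 of the counts in wild-type blood (SD, n = 3) and 0.0462% ± 0.00904 in transgenic blood. The share was 0.0699% ± 0.0158 in the meninges and 0.149% ± 0.0193 in the parenchyma. Per library, it was 0.0517%, 0.0781% and 0.0799% in the meninges and 0.144%, 0.133% and 0.171% in the parenchyma. As a sum, the members thus remained below their wild-type level in all 6 brain libraries, and the parenchyma libraries lay above the meningeal ones. In such bulk samples, fewer cells that express a transcript and less of it per cell cannot be told apart.

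**Figure D1:**
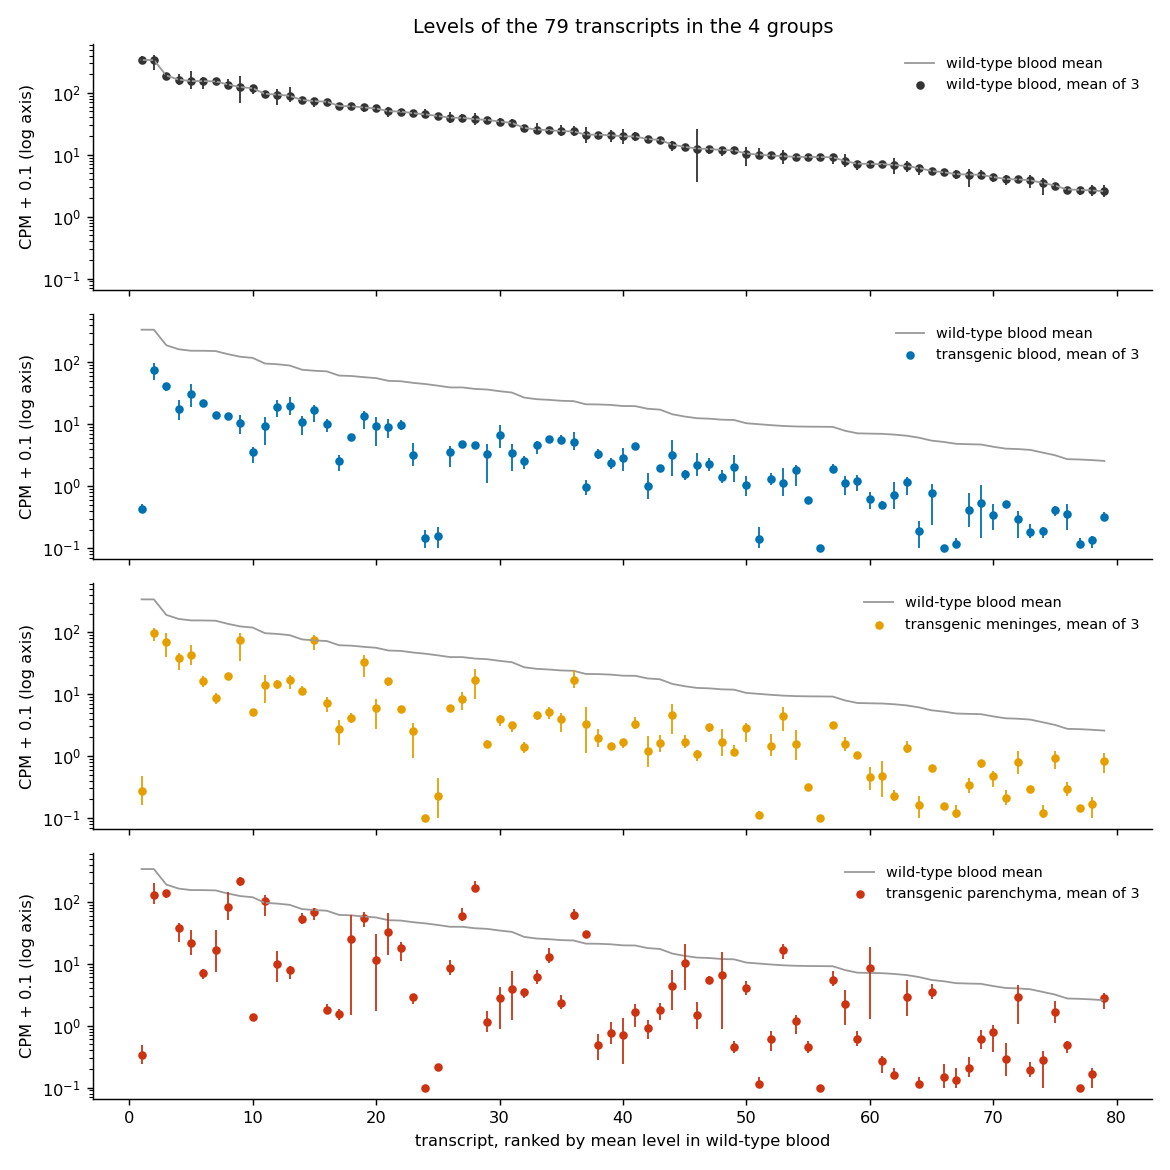
Mean level of each of the 79 members in the 4 groups (points, CPM + 0.1 on a log axis) with the range of the 3 libraries (vertical lines), ranked by the mean in wild-type blood (grey line). Most points of transgenic blood and meninges lie well below the grey line, while 9 members have a parenchyma mean above it.

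To ask whether the members stay low in the brain tissues, the criterion of the blood comparison was applied to each tissue. A member was said to stay low where the wild-type mean was at least 4 times the tissue mean, with 0.5 CPM added, and no library of the 2 groups overlapped. It was said to rise where the tissue mean was at least 4 times the transgenic blood mean, again with no overlap. Wild-type and transgenic blood values chose the members, so these counts describe the set and are not a test. In the meninges 61 of 79 members stayed low, 2 rose and 16 did neither. In the parenchyma 48 stayed low, 13 rose and 18 did neither. Among all 9850 rows of at least 2 CPM in wild-type blood, 1.27% stayed low by this criterion in the meninges and 2.15% in the parenchyma, while 0.650% and 1.57% rose. The number that stayed low was 60 to 62 when 1 meningeal library was left out, and 44 to 51 when 1 parenchyma library was left out. The number rising in the meninges was 1 without meninges replicate 2.

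Both tissues were low for 47 members. A further 7 stayed low in the meninges and rose in the parenchyma, and 7 stayed low in the meninges and did neither in the parenchyma. In single libraries, the members at no more than 0.25 of the wild-type mean (0.5 CPM added) numbered 75, 64 and 70 in transgenic blood and 66, 62 and 58 in the meninges. In the parenchyma they numbered 49, 52 and 44. Fewer members were low in each parenchyma library than in any meningeal library. The share of all rows this low in each library is not given, so the difference is not read as particular to the members.

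The level of each member was also placed on a scale on which 0 is its mean in transgenic blood and 1 its mean in wild-type blood, as means of log2(CPM + 0.5). The median position was 0.0036 in the meninges (interquartile range -0.12 to 0.18) and 0.031 in the parenchyma (-0.20 to 0.58). The middle member was thus near its transgenic blood level in both tissues, and the upper quartile was much higher in the parenchyma. In each brain tissue 27 members averaged under 1 CPM, where the 0.5 CPM added dampens differences from transgenic blood. With 0.1 CPM added instead, the medians were 0.0080 in the meninges and 0.064 in the parenchyma. Positions within 0.25 of transgenic blood were held by 56 members in the meninges and by 33 in the parenchyma. In the parenchyma 23 members stood at 0.5 or more and 8 above 1, and in the meninges 6 and 0. The parenchyma also spread the members downwards, to a lowest position of -0.81 against -0.38 in the meninges.

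**Figure D2:**
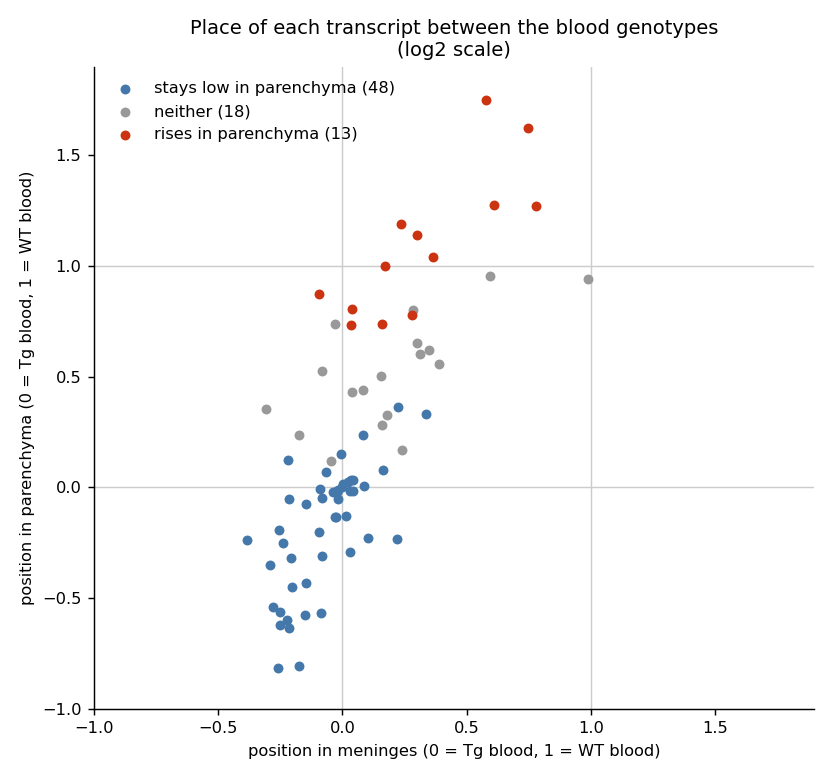
Position of each member in the meninges (horizontal) and parenchyma (vertical) on a log2 scale where 0 is transgenic blood and 1 is wild-type blood. The 48 members that stay low in the parenchyma are blue, the 13 that rise are red, and the other 18 are grey. Both axes share the same transgenic and wild-type blood means, which by itself draws the points towards a diagonal.

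These criteria divided the members into 3 classes, whose summed levels are given in turn. The 47 that stayed low in both tissues summed to 1906 ± 115 CPM in wild-type blood, 177 ± 33.8 CPM in transgenic blood, 160.0 ± 19.4 CPM in the meninges and 138 ± 53.9 CPM in the parenchyma (SD, n = 3). The 13 that rose in the parenchyma summed to 589 ± 75.2, 62.6 ± 3.02, 172 ± 44.7 and 815 ± 72.6 CPM in the same order. The other 19 summed to 1082 ± 126, 222 ± 54.4, 368 ± 95.2 and 538 ± 101 CPM. The sum of the rising members in each parenchyma library, at 741, 817 and 887 CPM, exceeded each wild-type library, at 631, 635 and 503 CPM. The parenchyma libraries chose this class, so its sum there is a description. By group mean, the excess lay in ENSRNOG00000055564 (mean 169 CPM in the parenchyma, 37.4 CPM in wild-type blood) and ENSRNOG00000054129 (218 and 124 CPM). Without both of them, the rest of the class had about the same sum in the parenchyma as in wild-type blood. The parenchyma mean was above the wild-type mean in 9 of the 13.

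**Figure D3:**
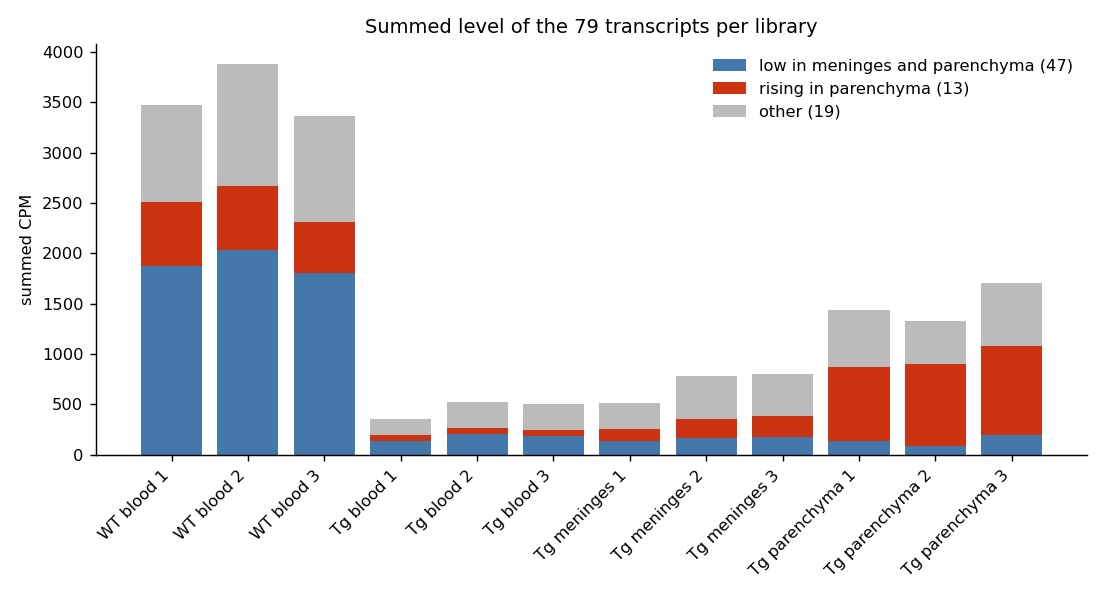
Summed CPM of the 79 members in each of the 12 libraries, divided into the 47 members low in both brain tissues, the 13 that rise in the parenchyma and the other 19. The red portion makes up more of the parenchyma bars than of any other group's bars, and the blue portion is at most 205 CPM in any of the 9 transgenic libraries. Parenchyma levels chose the red class, and levels in both tissues chose the blue class.

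Some members were very low in transgenic cells of every tissue. Under 1 CPM in each of the 9 transgenic libraries were 19 members, with wild-type means of 2.55 to 338 CPM and a median of 4.76 CPM. Their sum was 509 ± 67.1 CPM in wild-type blood, 3.37 ± 0.963 CPM in transgenic blood, 2.94 ± 0.852 CPM in the meninges and 3.20 ± 0.967 CPM in the parenchyma (SD, n = 3). Most of the wild-type sum came from the most abundant member, at a mean of 338 CPM. In 7 of the 19 no transgenic library held more than 3 counts, and the highest count of any of the 19 in a transgenic library was 26. By the criterion above, 18 of the 19 stayed low in both tissues.

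The most abundant of all members was among these 19. ENSRNOG00000048468 stood at 396, 320 and 299 CPM in wild-type blood. It stood at 0.283, 0.294 and 0.415 CPM in transgenic blood, at 0.383, 0.0601 and 0.0609 CPM in the meninges and at 0.157, 0.137 and 0.396 CPM in the parenchyma. In counts this was 15276, 11662 and 8964 in the wild-type libraries and between 1 and 11 in each transgenic library, with overlap between all 3 transgenic groups. Pooled over libraries, wild-type blood exceeded the meninges 2079-fold (95% exact binomial interval 1190 to 4025, from 12 meningeal counts) and the parenchyma 1381-fold (862 to 2370, from 17 counts). These intervals cover counting error only and not the spread between libraries. Meninges replicate 1 gave 9 of the 12 counts, and parenchyma replicate 3 gave 11 of the 17. The wild-type values also chose this member. It did not pass the filter on low counts in the transgenic libraries and was not tested between tissues.

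A further 2 of the 19 are named after their values were seen. ENSRNOG00000049577 had 2116, 1466 and 1174 counts in the wild-type libraries and 1, 2 and 0 counts in transgenic blood. It had 0 counts in all 6 meningeal and parenchyma libraries, and wild-type blood was at least 1102-fold higher than the meninges and at least 1036-fold higher than the parenchyma, taking 3 counts over the whole group as the limit. ENSRNOG00000047018 had 395, 336 and 232 counts in wild-type blood and was the 1 member without a count in any of the 9 transgenic libraries. Its wild-type level was at least 179-fold higher than transgenic blood, at least 223-fold higher than the meninges and at least 210-fold higher than the parenchyma with the same limit. These bounds cover counting error only.

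The second most abundant member behaved differently. ENSRNOG00000058446 stood at 233, 405 and 375 CPM in wild-type blood and at 52.2, 78.0 and 96.9 CPM in transgenic blood. It stood at 72.9, 105 and 116 CPM in the meninges and at 198, 93.3 and 92.8 CPM in the parenchyma, where replicate 1 stood well above the other 2 but below every wild-type library. It was called in none of the contrasts between transgenic tissues. Its log2 fold change was 0.43 (SE 0.33, edgeR adjusted p = 0.490) for meninges against transgenic blood and 0.75 (SE 0.33, edgeR adjusted p = 0.103) for parenchyma against transgenic blood.

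Parenchyma and meninges were compared directly, since the rule used neither. The fit covered the 9 transgenic libraries and 11809 genes. Of the 79 members, 61 passed its filter on low counts and 18 did not. The 18 had wild-type means of 2.55 to 338 CPM and no transgenic library above 1.08 CPM. Those that passed needed counts in some transgenic tissue, so the 61 are not a picture of the whole set. A member could pass through the parenchyma libraries alone, which favours calls of higher there. In the parenchyma 18 of the 61 members were higher than in the meninges (29.5%) and 6 were lower (9.84%). Of all genes tested, 8.0% were higher and 7.48% were lower, so the share of members called lower was close to that background. The median log2 fold change was 0.48 over the tested members and 0.02 over all genes tested. The higher members differed by a median of 3.85-fold (1.78- to 22.3-fold) and the lower by 3.64-fold (2.21- to 5.18-fold). Without meninges replicate 2 the number higher was 9, and without meninges replicate 3 it was 11. The share of all genes called in those fits is not given. A change in the members therefore cannot be told from a change in calls for every gene.

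**Figure D4:**
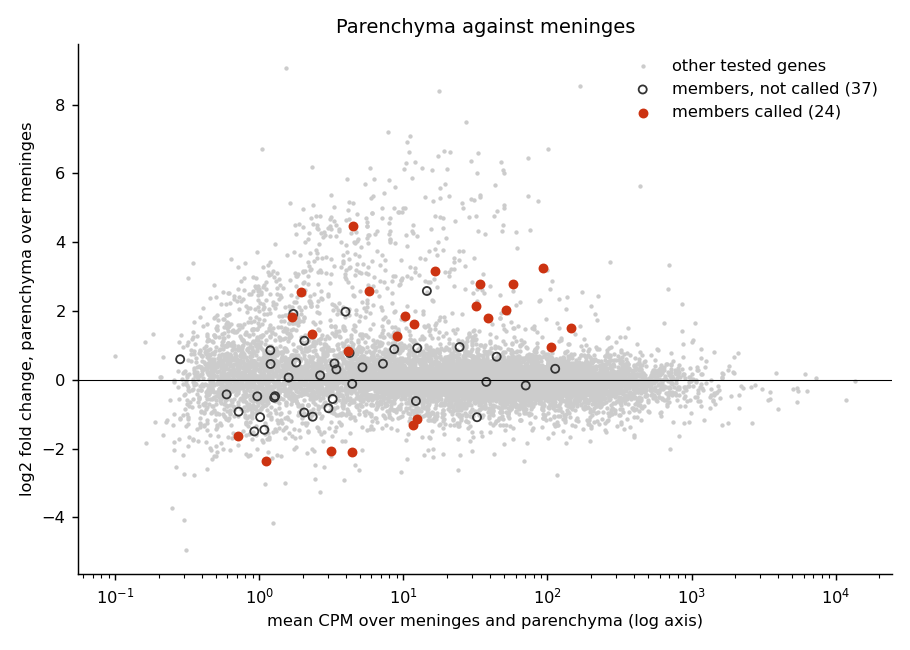
Log2 fold change of parenchyma over meninges against the mean CPM of the 6 libraries (log axis) for the 11809 genes tested. Of the 61 members tested, the 24 called are filled red, 18 above and 6 below 0, and the 37 not called are open circles.

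The 2 members with the largest rise from meninges to parenchyma differed in their spread. ENSRNOG00000042189 stood at 7.72, 7.21 and 6.07 CPM in wild-type blood, at 0.330, 0.538 and 0.712 CPM in transgenic blood and at 0.553, 0.180 and 0.335 CPM in the meninges. In the parenchyma it stood at 5.51, 1.19 and 18.9 CPM, so that all 3 libraries lay above the other transgenic libraries and replicate 3 lay above wild-type blood. The log2 fold change was 4.48 (SE 0.92, edgeR adjusted p = 0.0125). It missed the threshold with limma-voom (adjusted p = 0.0912), without meninges replicate 2 (edgeR adjusted p = 0.0610) and without meninges replicate 3 (edgeR adjusted p = 0.0618).

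ENSRNOG00000055564 had narrower values and the highest position of any member in the parenchyma. It stood at 34.1, 47.9 and 30.1 CPM in wild-type blood and at 4.38, 4.16 and 5.10 CPM in transgenic blood. It reached 8.21, 17.8 and 24.8 CPM in the meninges and 214, 147 and 145 CPM in the parenchyma. Each parenchyma library was thus above every wild-type library, and each meningeal library lay between the blood genotypes. The log2 fold change of parenchyma over meninges was 3.25 (SE 0.35, edgeR adjusted p = 0.000667).

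The 6 members lower in the parenchyma than in the meninges lay further below wild-type blood there. ENSRNOG00000011300 stood at 73.7, 68.0 and 73.8 CPM in wild-type blood and at 7.40, 12.1 and 11.0 CPM in transgenic blood. It stood at 4.98, 8.77 and 7.61 CPM in the meninges and at 2.10, 1.56 and 1.51 CPM in the parenchyma, with all 3 parenchyma libraries below every other library. The log2 fold change against the meninges was -2.11 (SE 0.28, edgeR adjusted p = 0.00191). ENSRNOG00000036647 fell from 4.76, 4.69 and 5.66 CPM in the meninges to 1.36, 1.24 and 1.19 CPM in the parenchyma (log2 fold change -2.06, SE 0.27, edgeR adjusted p = 0.00191). It stood at 126, 135 and 95.0 CPM in wild-type blood and at 2.26, 3.87 and 4.27 CPM in transgenic blood.

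Each brain tissue was also compared with transgenic blood, to ask which members moved once the same genotype was in the tissue. The transgenic blood libraries are the low side of the rule, and a transcript chosen for being low in them is more likely to appear higher elsewhere. Both contrasts also share those libraries, so their values are given side by side only. In the meninges 6 of the 61 tested members were higher than in transgenic blood (9.84%), against 4.76% of all genes tested. With edgeR 0 members were lower, against 1.75% of all genes, and 3 were lower at an unadjusted p under 0.05. DESeq2 and limma-voom also called 0 lower, while edgeR fits on all 12 libraries and on only these groups each called 2 lower. The number higher was 2 without transgenic blood replicate 2, 3 without transgenic blood replicate 3, and 10 with DESeq2 or with a fit of only these groups. For these other settings too, the share of all genes called is not given.

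In the parenchyma 26 of the 61 were higher than in transgenic blood (42.6%), against 18.7% of all genes tested. The filter on low counts could here too admit a member through the parenchyma libraries alone. The choice of members for low transgenic blood values also favours calls of higher. A further 12 were lower (19.7%), near the 16.4% of all genes. The median log2 fold change over the tested members was 0.20 in the meninges and 0.75 in the parenchyma, and 0.00 and 0.02 over all genes tested. The 26 higher members differed by a median of 4.93-fold (1.86- to 36.7-fold) and the 12 lower by 3.06-fold (2.22- to 8.5-fold). Of the 26, 17 still averaged less than in wild-type blood. A further 22 tested members were called in none of the 3 contrasts, which does not show that their levels were equal.

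Of the 6 members called higher in the meninges, the 2 that met the criterion for rising also had the largest fold changes. Their transgenic blood values helped to choose them, so the p-values against transgenic blood are not independent of that choice. ENSRNOG00000054129 stood at 185, 118 and 67.7 CPM in wild-type blood and at 14.2, 10.7 and 6.88 CPM in transgenic blood. It stood at 34.0, 92.3 and 95.7 CPM in the meninges and at 183, 225 and 247 CPM in the parenchyma. Meninges replicate 1 was the lowest of the brain libraries, yet above every transgenic blood library. The log2 fold change was 2.84 for meninges against transgenic blood (SE 0.39, edgeR adjusted p = 0.00248) and 1.5 for parenchyma against meninges (SE 0.36, edgeR adjusted p = 0.0234).

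ENSRNOG00000053766 overlapped its wild-type values in the meninges and was not called further in the parenchyma. It stood at 77.0, 83.9 and 59.5 CPM in wild-type blood and at 10.8, 20.3 and 19.4 CPM in transgenic blood. It stood at 51.3, 89.2 and 79.3 CPM in the meninges and at 73.0, 50.6 and 80.6 CPM in the parenchyma. The meninges exceeded transgenic blood by 2.18 on the log2 scale (SE 0.29, edgeR adjusted p = 0.00193). The parenchyma differed from the meninges by -0.16 (SE 0.27, edgeR adjusted p = 0.728), and was not called.

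The largest called rises over transgenic blood were in the parenchyma. The transgenic blood libraries are the low side of the rule, which favours such calls. ENSRNOG00000055564, given above, was 5.20 higher on the log2 scale (SE 0.39, edgeR adjusted p = 2.14e-05). ENSRNOG00000026759 stood at 15.6, 28.1 and 19.3 CPM in wild-type blood and at 0.848, 0.636 and 1.19 CPM in transgenic blood. It stood at 1.02, 2.52 and 6.03 CPM in the meninges and at 29.9, 33.9 and 26.7 CPM in the parenchyma. Its parenchyma and wild-type values overlapped, while meninges and transgenic blood overlapped at the low end. The log2 fold change of parenchyma over transgenic blood was 5.07 (SE 0.58, edgeR adjusted p = 0.00022), and that of parenchyma over meninges was 3.16 (SE 0.51, edgeR adjusted p = 0.00446).

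In the other direction, ENSRNOG00000011300, given above, was lower in the parenchyma than in transgenic blood by a log2 fold change of -2.57 (SE 0.28, edgeR adjusted p = 0.00018). ENSRNOG00000030515 stood at 114, 167 and 182 CPM in wild-type blood and at 23.8, 21.7 and 19.9 CPM in transgenic blood. It stood at 19.2, 12.9 and 16.9 CPM in the meninges and at 8.03, 5.63 and 7.02 CPM in the parenchyma. Every meningeal library lay below every transgenic blood library, and every parenchyma library below every meningeal one. The log2 fold change was -1.67 against transgenic blood (SE 0.20, edgeR adjusted p = 0.00029) and -1.31 against the meninges (SE 0.20, edgeR adjusted p = 0.00382). Its meningeal level was not called different from transgenic blood (log2 fold change -0.36, SE 0.20, edgeR adjusted p = 0.320).

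**Figure D5:**
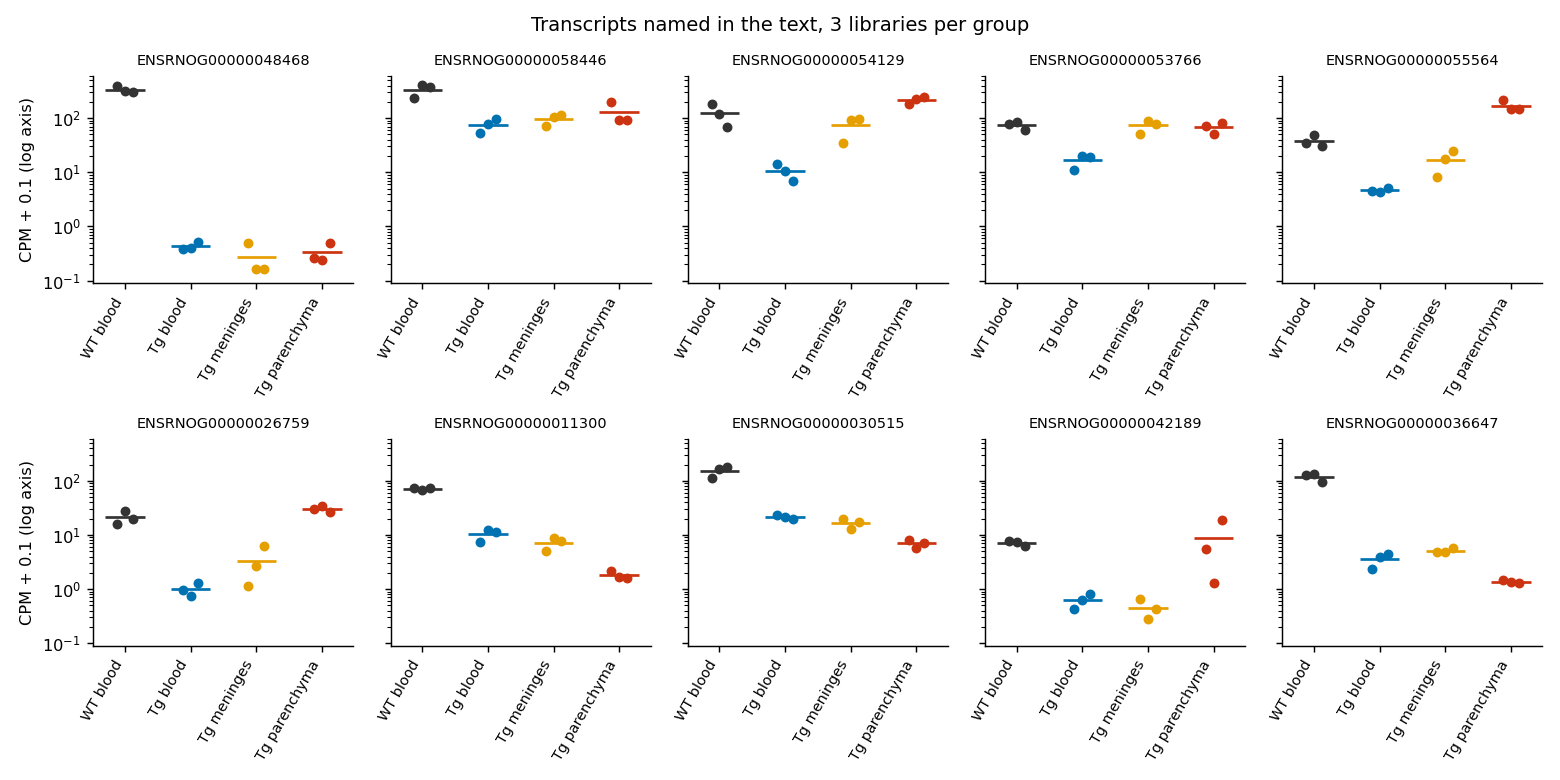
CPM + 0.1 (log axis) in each of the 3 libraries per group (points) with the group mean (lines) for the 10 identifiers chosen by level or fold change. ENSRNOG00000048468 stays near 0 in all transgenic groups. The parenchyma mean exceeds the wild-type mean for ENSRNOG00000055564, ENSRNOG00000054129, ENSRNOG00000026759 and ENSRNOG00000042189. ENSRNOG00000011300, ENSRNOG00000030515 and ENSRNOG00000036647 are lowest in the parenchyma.

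The 13 members that rose in the parenchyma had wild-type means from 2.47 to 136 CPM. Their parenchyma mean was 4.87 to 37.1 times that of transgenic blood, with a median of 12.7, and 0.614 to 4.51 times that of wild-type blood, with a median of 1.22. In 9 of the 13 it was above the wild-type mean. All 13 were called higher than in transgenic blood, and 12 of the 13 were called higher than in the meninges, but the same parenchyma libraries chose them. All 7 that stayed low in the meninges and rose in the parenchyma were among them. Of these 7, 5 were called without meninges replicate 2 or without meninges replicate 3. The libraries of both tissues chose the 7, so these calls are a description and not a test. The highest parenchyma library of a rising member was replicate 1 in 3 cases, replicate 2 in 5 and replicate 3 in 5. When 1 parenchyma library was left out, 9 to 18 members met the criterion, with 9 without replicate 3. By group mean, without regard to calls, 26 of the 79 members were ordered transgenic blood, meninges, parenchyma from low to high, and 18 from high to low. Members were chosen for low transgenic blood values, which favours the order from low to high. The share of all rows in either order is not given, so nothing is drawn from these counts.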

How the data were processed

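The authors deposited whole-number counts per gene, 1 file per library, with 32754 gene rows. The submitters' processing notes name genome build rn6, STAR 2.5, featureCounts 1.5.0-p1, R 3.4.2 and DESeq2 1.14.1. They also list FastQC 0.11.5 and bcl2fastq 2.17.1.14. No source used here gives the strand setting or annotation, so overlapping, antisense and near-identical genes may share reads. The labels' protocols list both TruSeq and NEBNext low-input preparation for every library, without saying which was used. Totals were 16643832 to 38601400 counts. Replicate libraries differed beyond sampling noise (chi-square per degree of freedom at least 13.9).

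CPM values are counts divided by the file total and multiplied by 1000000. The wild-type to transgenic blood rule and the criteria for the tissues use them with 0.5 CPM added. Tests used edgeR 4.0.16 in R 4.3.3 on the 9 transgenic libraries (filterByExpr, minimum count 10, TMM scaling, quasi-likelihood F test, two-sided, Benjamini-Hochberg adjustment over the 11809 genes tested, threshold 0.05). The standard error was taken as the log2 fold change divided by the square root of F. The procedure was tested on simulated data. Other settings were limma-voom (limma 3.58.1), DESeq2 1.42.0, other scalings, filters and fits, and leaving out libraries. Intervals are 95% exact binomial intervals on pooled counts, and bounds use 3 counts over a group. Both cover counting error only.

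The members and lists were chosen with earlier results of these data known. Of the identifiers in the files, 0 were found in the reference tables, so gene symbols, marker lists, gene lists and sequences were not used here. Identifiers printed are the 2 members of highest wild-type level and, per contrast and direction, up to 2 called members of largest fold change with at least 5 CPM in the higher group. Others are said to be chosen after their values were seen. Replicate numbers in the titles did not pair the transgenic libraries of all tissues by correlation of their deviations from group means. Between blood and meninges this was not settled.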

Additional observations from a re-analysis of the deposited data

How the results depend on the processing

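Other settings gave 155 values for counts and medians, of which 143 stayed within 1.5 times the reported count or within the replicate spread. Those for the 47 members low in both tissues and for the 7 low in the meninges and rising in the parenchyma were added after seeing the data. Of 130 values for single identifiers, 127 kept their call and direction, 3 lost the call (all ENSRNOG00000042189, parenchyma against meninges, adjusted p up to 0.0912 over 13 settings) and 0 reversed. The number of members was 127 with a ratio of 3 and 25 with a ratio of 8. The median position in the meninges was 0.0151 with TMM-scaled CPM. Members rising in the meninges numbered 1 to 3 when 1 library was left out. Members higher in the meninges than in transgenic blood numbered 10 with DESeq2, 10 in a fit of only these groups and 2 to 8 when 1 library was left out. Members lower there numbered 2 in a fit on all 12 libraries and 2 in a fit of only these groups. Members higher in the parenchyma than in the meninges numbered 9 to 18 when 1 library was left out. Causes were not tested. With the replicate number as a block, members higher and lower numbered 8 and 0 for meninges against transgenic blood, 27 and 11 for parenchyma against transgenic blood, and 16 and 5 for parenchyma against meninges. These counts of calls stand without the share of all genes called under the same setting. They do not show whether the members or the calls for every gene changed. Same-numbered libraries correlated between -0.323 and 0.288 in their deviations, and differently numbered ones up to 0.381, so the numbers were not taken as pairs. For transgenic blood and meninges alone, same-numbered libraries correlated at 0.273, 0.288 and 0.0513. Differently numbered ones of these tissues reached at most 0.0528, so pairing between them was not settled. Members with few counts in transgenic libraries are limited by depth.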

Other observations

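Some members varied widely between libraries of 1 group. In the parenchyma, 5 of the 43 members of at least 2 CPM there had a highest library at least 5 times the lowest (0.5 CPM added), and in all 5 replicate 3 was highest and replicate 2 lowest. Among all rows of at least 2 CPM in the parenchyma, 4.07% had such a spread. Besides ENSRNOG00000042189, they were ENSRNOG00000002032 (11.5, 1.37 and 62.2 CPM in replicates 1, 2 and 3), ENSRNOG00000016117 (2.47, 1.60 and 29.9 CPM), ENSRNOG00000011441 (5.56, 3.71 and 20.8 CPM) and ENSRNOG00000020811 (2.94, 0.778 and 15.4 CPM), named after their values were seen. The transgenic blood and meningeal libraries held no member with such a spread. Wild-type blood held 1, ENSRNOG00000022071, at 3.55, 26.4 and 7.51 CPM, which stayed low in the parenchyma. Its place among the members and in that class rests largely on wild-type replicate 2. Its lowest wild-type library was close to its highest transgenic blood library, at 3.33 CPM.

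The mirror rule, with transgenic and wild-type blood exchanged, gave 152 transcripts. Of these, 48 (31.6%) in the meninges and 44 (28.9%) in the parenchyma remained at least 4 times above wild-type blood with no overlap. For the 79 members the corresponding numbers that stayed below were 61 (77.2%) and 48 (60.8%). On the same scale, with 0 for transgenic and 1 for wild-type blood, the median position of the 152 was 0.27 in the meninges and 0.55 in the parenchyma. The share of all rows at least 4 times above wild-type blood in each tissue is not given. The difference between the lists was not tested, and nothing is drawn from it.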
